A study of Mus musculus with 3 samples.

Results

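Clca3a2 Pi15 smooth muscle nuclei are single nuclei from the newborn mouse aortic valve region that carry smooth muscle RNA and more RNA of 5 panel genes, Clca3a2, Pi15, Syt1, Col24a1 and Cdh18, than of either of 2 other smooth muscle panels. A nucleus entered the smooth muscle pool with at least 1000 UMIs (counted RNA molecules), at most 5% of them mitochondrial, at least 3 of Myh11, Itga8, Lmod1, Synpo2 and Mylk detected and those 5 genes at 0.2% or more of its UMIs. Nuclei with 0.5% or more of their UMIs from Ryr2, Ttn, Myh6 and Tnnt2, or with over 1 UMI from Pecam1, Cdh5 and Ptprb, were left out. A member then had at least 2 UMIs of the panel, and more of them than of Ptprz1, Mylk4 and Col19a1 together and than of Rgs5, Sost and Igfbp2 together. The rule chose 1169 nuclei of 2612 smooth muscle nuclei, of 14073 nuclei within the UMI and mitochondrial limits and of 21140 deposited nuclei. The other 1443 smooth muscle nuclei were 998 led by the Ptprz1/Mylk4 panel, 145 led by the Rgs5/Sost panel and 300 with no leading panel.

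The study isolated aortic valve structures at postnatal day 1 and froze them, and measured RNA in isolated nuclei with the gene expression part of the 10x Genomics Multiome assay. All samples form 1 group, in 3 pools of 22 to 24 aortic roots each, so every comparison here is between classes of nuclei inside the pools. All pools came from B6.Cg-Scx<tm1.1(EGFP)Skom mice (stock RBRC11098), a strain that carries an EGFP allele of Scx. Whether the pups carried 1 or 2 copies of the allele and which sex they were is not given in the sources used here, and there is no group without the allele.

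The wall of the aortic root and ascending aorta is built of smooth muscle cells that alternate with elastic layers and attach to the valve leaflets. These cells descend from neural crest and from the second heart field, and in the newborn they both contract and lay down elastin and collagen. Contractile genes share a control element, the CArG box, which is bound by serum response factor together with myocardin. Among the panel genes, Clca3a2 belongs to the family of calcium-activated chloride channel regulators, Pi15 encodes a secreted CAP-domain protein, Syt1 a calcium sensor of vesicle release, Col24a1 a fibrillar collagen and Cdh18 a cadherin.

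Members made up 44.8% ± 2.37 (SD, n = 3 pools) of smooth muscle nuclei. The share was 44.2% (Wilson 95% interval 41.8 to 46.6, 720 nuclei) in pool 1, 42.7% (37.8 to 47.8, 159 nuclei) in pool 2 and 47.4% (43.5 to 51.3, 290 nuclei) in pool 3. These intervals overlap, while the share of all nuclei within the limits ran from 4.89% in pool 2 to 10.2% in pool 1. Members had a median of 4001.5, 4041 and 2673 UMIs in the 3 pools, against 4047.5, 3582 and 2581.5 in the other smooth muscle nuclei. Intervals of this kind cover counting error only. The pools shared 99, 59 and 44 cell barcodes (pools 1 and 2, 1 and 3, 2 and 3), and 1 of these barcodes was a member in both of its pools. A doublet caller with its automatic threshold marked 0, 0 and 1 nuclei and so gave no usable call. Marking the top-scoring 0.8% per 1000 deposited nuclei took 4.02% of members and 3.67% of the other smooth muscle nuclei.

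Levels of 3 contractile genes that the rule did not use are given beside the smooth muscle label as a description. Acta2, smooth muscle actin, was at 674, 1082 and 556 CPM (counts scaled to 1000000 UMIs) in the members of pools 1, 2 and 3. It was at 175 ± 38.9 CPM in nuclei gated for cardiomyocyte genes and 212 ± 1.43 CPM in nuclei gated for endothelial genes (SD, n = 3 pools). Tagln, an actin-binding protein of smooth muscle, was at 394 ± 143 CPM against 46.2 ± 15.2 and 97.0 ± 7.16, and calponin Cnn1 at 65.2 ± 17.9 against 9.03 ± 1.38 and 12.7 ± 1.14. All 3 genes were higher in members than in both other kinds of nuclei in every pool. EGFP was at 2.86 ± 3.38 CPM in members, below the 11.1 ± 1.97 CPM of endothelial nuclei, and Scx had 0 UMIs in 1169 members, which allows a share of nuclei with a UMI of up to 0.257%.

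The panel values chose the members and are given as a description. Clca3a2 was at 602, 820 and 659 CPM in members against 29.5, 16.1 and 27.1 CPM in other smooth muscle nuclei. Pi15 was at 746, 1015 and 884 CPM against 74.1, 128 and 108 CPM, and Syt1 at 109, 129 and 136 CPM against 13.1, 3.46 and 15.5 CPM. Col24a1 was at 1328, 1256 and 1364 CPM against 317, 243 and 253 CPM, and Cdh18 at 1957, 1878 and 1865 CPM against 538, 502 and 480 CPM. The 2 genes in the class name gave a minority of the panel's UMIs: Cdh18 gave 39.9%, Col24a1 27.5%, Pi15 16.8%, Clca3a2 13.3% and Syt1 2.43%. Of the members, 314 (26.9%) had no UMI of Clca3a2 or Pi15, and 60.7% had at least 3 of the 5 genes.

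Every nucleus was thinned to 1000 UMIs to compare detection at 1 depth. Clca3a2 was then detected in 29.1% ± 1.37 of members (47.4% of all members before thinning), 1.96% ± 0.927 of other smooth muscle nuclei, 0.932% ± 0.265 of cardiomyocyte nuclei and 1.80% ± 0.624 of endothelial nuclei. The median depths before thinning were 3745 UMIs in members, 5636.5 in cardiomyocyte nuclei and 4992 in endothelial nuclei. Cdh18 was detected in 63.7% ± 1.23 of members and 28.9% ± 4.89 of other smooth muscle nuclei, both above the 2.11% ± 0.121 of cardiomyocyte nuclei. The rule itself keeps panel UMIs low in the other smooth muscle nuclei, so the shares there are descriptions.

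**Figure D1:**
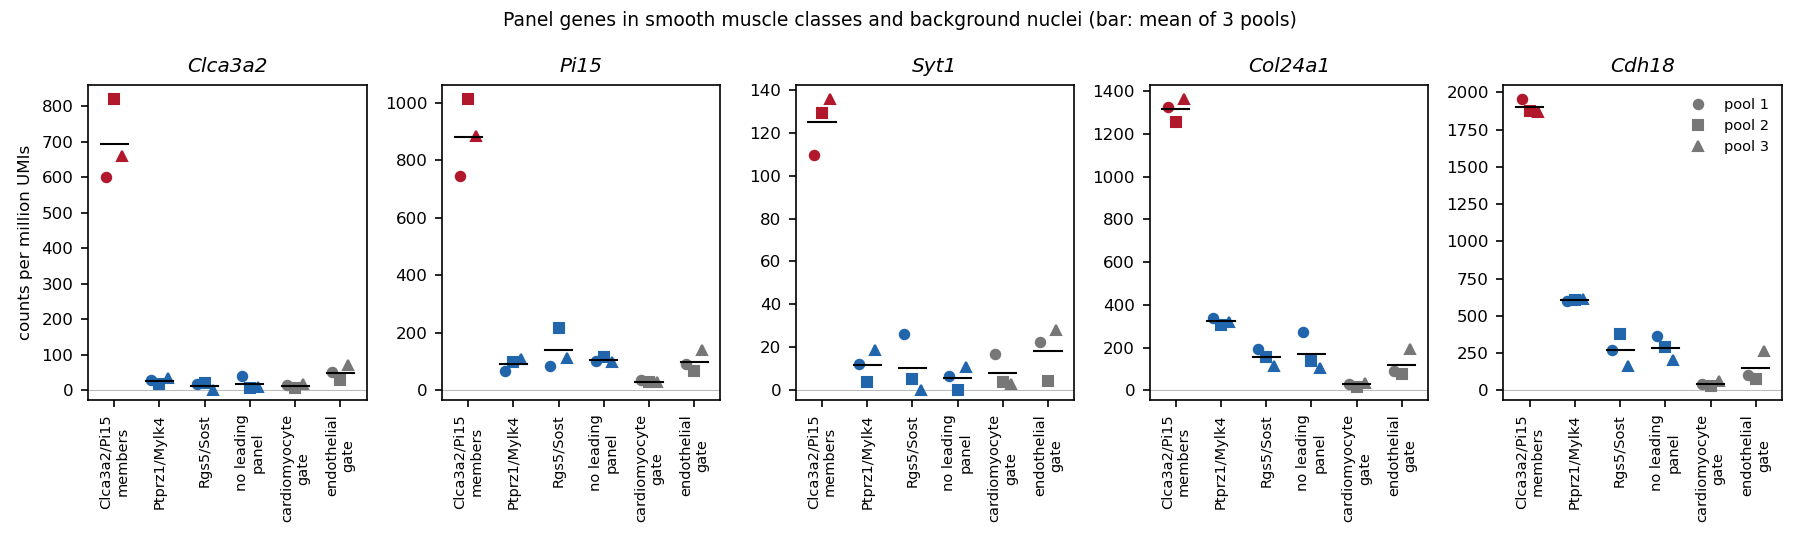
CPM of the 5 panel genes (vertical axes, linear) in members (red), the other 3 smooth muscle classes (blue) and nuclei gated for cardiomyocyte or endothelial genes (grey). Each symbol is 1 pool and each bar the mean of 3 pools, and members are highest for every gene because the panel chose them.

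The panel also crossed class borders. Of the members, 64.7% had at least 1 UMI of the Ptprz1/Mylk4 panel and 54.6% at least 1 of the Rgs5/Sost panel. Ptprz1, a receptor phosphatase, was at 712 ± 93.6 CPM in members against 3011 ± 131 CPM in the nuclei it led. The median panel sum was 16 UMIs, 47 members sat at the minimum of 2, and 83 members led by 1 UMI only. Just outside the rule were 34 nuclei with a leading sum of 1 and 96 whose sum of 2 or more tied with another panel. When members were chosen by 4 panel genes and the fifth was read, its level in the chosen nuclei exceeded that in the rest 11.9 times for Clca3a2, 5.99 times for Pi15, 4.66 times for Syt1, 3.29 times for Col24a1 and 1.93 times for Cdh18. By pool the ratio ran from 8.46 to 24.6 for Clca3a2, from 5.60 to 6.80 for Pi15, from 3.04 to 18.7 for Syt1, from 2.98 to 3.65 for Col24a1 and from 1.87 to 1.97 for Cdh18. All 5 genes came from an earlier clustering of the same nuclei, so higher levels could be foreseen and the ratios are a description.

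UMIs were then summed per pool over members and over all other smooth muscle nuclei, and 10068 genes outside the rule were tested with edgeR's quasi-likelihood test, with the pool as a block and Benjamini-Hochberg adjustment. Levels of single genes from here on are CPM of these sums scaled by edgeR's size factors, summed levels of marker lists are CPM without that scaling, and differences are log2 folds ± SE. The test called 1183 genes at an adjusted p under 0.05 (11.8%), 585 higher in members (5.81%) and 598 lower (5.94%). The panel came from an earlier clustering of the same nuclei in which all genes took part, so these calls describe which genes go with the panel and are no independent evidence of a class. Both sums of a pool come from 1 library. Without the pool block 148 genes were called (63 higher, 85 lower), DESeq2 called 368 (163 higher, 205 lower), and without pool 1 or pool 3 the count was 560 or 773. The 25 genes with the largest differences among called genes at 20 CPM or more in the higher group that differed the same way in 3 of 3 pools, a choice that favours such genes, were all called when any 1 pool was left out and 20 were called without the block. DESeq2 gave an adjusted p for 17 of them and called 16. For 17.2% of all genes tested the 3 pools of members and of others did not overlap.

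Genes beside the panel genes in the genome differed in both directions. Of the 46 protein-coding genes within 5 places of a panel gene, 25 were tested, 5 were higher in members and 5 lower, where 11.8% of all genes tested were called. Clca3a1, the next protein-coding gene to Clca3a2 in the GRCm38.p6 RefSeq order, was at 228, 250 and 211 CPM in members and 42.6, 27.3 and 52.5 CPM in the others. Every member pool was above every pool of the others, and the difference was 2.44 ± 0.12 (edgeR adjusted p 3.3e-92). The 2 genes are similar in sequence, so reads of one may have been counted for the other. Crispld1, a CAP-domain gene next to Pi15, was at 76.9, 48.8 and 75.7 CPM against 23.0, 26.1 and 27.3 CPM, a difference of 1.54 ± 0.16 with no overlap.

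Beside Cdh18 lie other cadherins, which mediate adhesion between like cells. Cdh12 was at 84.2, 55.6 and 54.1 CPM in members against 28.4, 33.2 and 17.2 CPM (1.43 ± 0.16). Cdh10 was at 12.5, 13.6 and 14.8 CPM against 0.947, 3.56 and 1.01 CPM (3.22 ± 0.47). Both were higher in every pool, while Cdh6 of the same neighbourhood was lower (-0.48 ± 0.07). Around Col24a1, Odf2l was higher (0.55 ± 0.16) and the matricellular gene Ccn1 lower (-0.64 ± 0.13), and around Syt1, the LIM-domain gene Csrp2 (-0.93 ± 0.06) and the cell cycle factor E2f7 (-0.74 ± 0.18) were lower. Hs2st1, near Clca3a2, was lower too (-0.32 ± 0.11). Odf2l, Ccn1, Csrp2, E2f7 and Hs2st1 were named for their place beside panel genes after their values were seen. The Odf2l call was lost without pool 1, without pool 2 and with DESeq2, and those of Odf2l, Cdh6, Ccn1, E2f7 and Hs2st1 without the pool block. The E2f7 and Hs2st1 calls were also lost without pool 1 and with DESeq2, and that of Hs2st1 without pool 3. In the whole cadherin list 3 of 12 tested genes were higher, with Cdh13 the third (1.20 ± 0.07), and 5 were lower, among them Pcdh9 (-0.60 ± 0.06). The share called was 66.7% and the median of the list -0.12, against 11.8% and 0.02 over all genes tested. The counts were 3 and 1 without the pool block, 2 and 2 with DESeq2 or without cycling nuclei and 3 and 2 without pool 1.

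Genes with the largest differences upward by this choice included an anion transporter and 4 neurotransmitter receptor genes, named one by one and not as a tested group. Slc26a7, the transporter, was at 37.4, 36.6 and 22.6 CPM in members and at 3.55, 0 and 4.04 CPM in the others (3.46 ± 0.31). Gabrb2, a GABA receptor subunit, was at 92.7, 118 and 96.4 CPM against 14.0, 7.12 and 15.2 CPM (2.90 ± 0.17). The glutamate receptor subunit Gria1 was at 309, 323 and 393 CPM against 81.4, 89.0 and 113 CPM (1.87 ± 0.10). In all of these the lowest member pool was above the highest pool of the others. A second glutamate receptor subunit, Gria4, was higher by 1.88 ± 0.22, and the muscarinic receptor Chrm2 by 1.88 ± 0.13, with 112, 103 and 205 CPM in members and 27.2, 16.6 and 77.8 CPM in the others. The Chrm2 call was lost without the pool block.

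The other upward genes of this choice were of several kinds. The receptor kinase Alk was at 57.0, 47.5 and 41.3 CPM in members against 4.97, 24.9 and 7.07 CPM (2.62 ± 0.21), and pool 2 was the highest of the others. Megf10, an engulfment receptor, was higher by 2.59 ± 0.19, the prolyl hydroxylase Egln3 by 2.46 ± 0.20, the contactin Cntn6 by 2.45 ± 0.23 and the testican Spock3 by 2.21 ± 0.18. Itih4 (2.18 ± 0.32), Frmd5 (2.03 ± 0.31) and the unnamed genes Gm28154 (3.15 ± 0.25) and Gm20754 (1.78 ± 0.18) completed the 15 upward genes at 20 CPM or more. Corin, the protease that activates natriuretic peptides, stands on the list of cardiomyocyte markers and was higher in members at 443, 483 and 638 CPM against 155, 125 and 234 CPM (1.58 ± 0.08). The other 11 cardiomyocyte markers summed to 3442, 3526 and 3366 unscaled CPM in members and 3860, 3729 and 3788 CPM in the others, lower in members without overlap, against 15633 ± 739 CPM in cardiomyocyte nuclei. Among those 11 only Ctnna3 was called (-0.16 ± 0.05), and it lost its call without pool 1, without pool 3, without the block and with DESeq2.

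**Figure D2:**
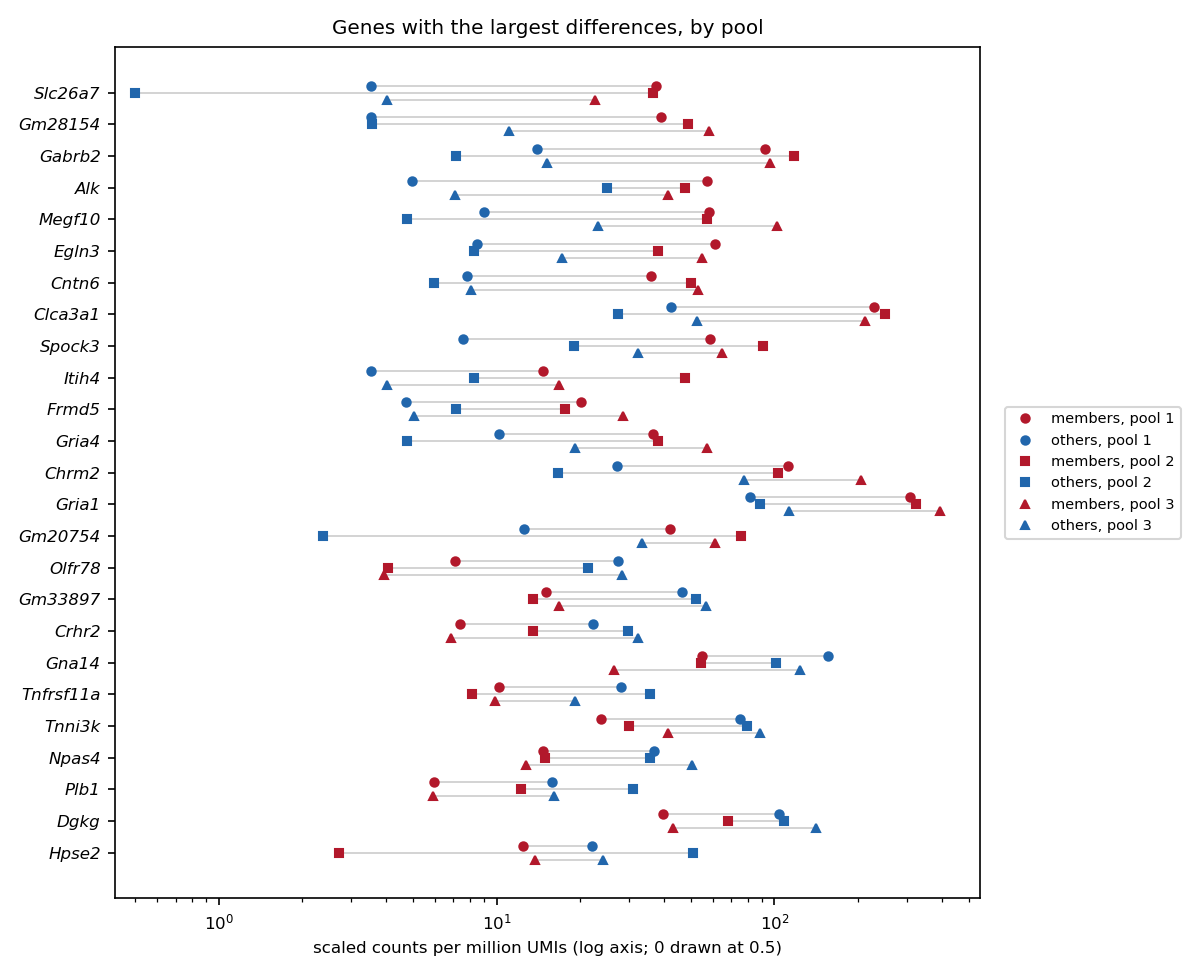
Scaled CPM (log axis) of the 15 upward and 10 downward genes chosen at 20 CPM or more in the higher group, in members (red) and other smooth muscle nuclei (blue). Each symbol is 1 pool joined to its partner of the same pool, and in all 25 genes every pool differs in the same direction.

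Genes of neural adhesion and axon guidance, by which axons and other cells steer and attach, were higher more often than lower. Of 35 tested genes 17 were higher and 3 lower, with a median of 0.34, or 57.1% called against 11.8% of all genes tested. The counts were 4 and 1 without the pool block and 10 and 1 with DESeq2. The guidance ligand Slit2 was at 331, 440 and 470 CPM in members against 136, 154 and 230 CPM (1.26 ± 0.08), and its receptor Robo1 at 509, 505 and 837 CPM against 225, 235 and 500 CPM (1.01 ± 0.07). Neither gene overlapped between the groups. The netrin receptor Dcc was at 17.3, 10.9 and 24.6 CPM against 2.13, 1.19 and 2.02 CPM (3.12 ± 0.40). Efna5, an ephrin ligand, was at 2144, 2627 and 2932 CPM against 1313, 1541 and 1603 CPM (0.78 ± 0.06). Its receptor Epha4 was higher by 0.74 ± 0.14, the netrin receptor Unc5c by 0.67 ± 0.06 and the plexin Plxna2 by 0.82 ± 0.09. The synaptic adhesion gene Nlgn1 (1.25 ± 0.15) was higher as well. Plxna4 was lower (-0.56 ± 0.09). Robo1, Epha4, Unc5c and Nlgn1 lost their calls without the pool block, and Nlgn1 also with DESeq2. The 10 autonomic neuron markers summed to 7.65, 0 and 13.2 CPM in the 3 pools of members and 7.72, 12.7 and 15.5 CPM in the others, with Th, Chrna3 and Snap25 at 0 in members. Schwann cell and glial markers summed to 15.2 ± 1.77 and 16.8 ± 4.49 CPM. Of the synaptotagmin and exocytosis list, to which the panel gene Syt1 is related, 0 of 11 tested genes were higher and 1 was lower (9.09%).

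Contractile genes were lower in members. Of 30 tested genes of the contractile apparatus and its regulators, 0 were higher and 18 lower, with a median of -0.32, and the count of lower genes was 2 without the pool block, 14 with DESeq2 and 12 without pool 1. Acta2 was at 674, 1114 and 581 CPM in members against 1142, 1997 and 989 CPM in the others (-0.79 ± 0.06), lower in each pool although the groups overlap, with pool 2 high in both. The edgeR adjusted p of Acta2 was 0.261 without the pool block, and the call was lost. Pdlim5, a LIM protein of the Z-line, was at 806, 818 and 962 CPM against 1386, 1354 and 1684 CPM (-0.77 ± 0.06), without overlap. The focal adhesion gene Vcl was at 666, 689 and 710 CPM against 922, 917 and 1061 CPM (-0.49 ± 0.06), and tropomyosin Tpm1 (-0.52 ± 0.06) and Ldb3 (-0.70 ± 0.08) were lower as well. The calls of Vcl and Tpm1 were lost without the pool block.

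Regulators of the programme are on the same list. Srf, the serum response factor gene, was at 12.8, 17.6 and 4.92 CPM in members against 19.9, 24.9 and 15.2 CPM (-0.73 ± 0.26, edgeR adjusted p 0.0435), and the call was lost without any 1 of the 3 pools. Its partner Myocd was at 683, 611 and 666 CPM against 823, 591 and 691 CPM (-0.12 ± 0.07) and did not pass the test except when pool 2 was left out (-0.20, edgeR adjusted p 0.039), and neither did Mrtfa (-0.01 ± 0.09) or Mrtfb (0.10 ± 0.10). The gate genes, which the rule used and which carry no test, summed to 0.456% ± 0.0152 of the UMIs of members and 0.608% ± 0.0288 of those of the others, but did not all lie the same way. In unscaled CPM, the integrin Itga8 was at 2037, 1847 and 1858 in members against 3434, 3184 and 3194, and the actin-binding gene Synpo2 was at 1265, 1226 and 1502 against 952, 882 and 1214. Myh11 and Mylk were lower in members in every pool, and Lmod1 overlapped.

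The upstream regions of the contractile genes were searched for the CArG box. Of 26 tested list genes with a promoter in the RefSeq table (GRCm38.p6), 5 (19.2%) had a box in the 250 bases before the start, namely Srf, Vcl, Ldb3, Myl9 and Myl6, against 1.61% of 8034 tested genes and 1.62% of all 27025 genes with a promoter there. The search pattern covers both strands alike, although a single match need not read the same on both, and it was the only motif searched. All 5 genes were among the 16 lower genes with a promoter (31.2%), and Srf and Myl9 lost their call without 1 pool. Contractile genes share this element, so a larger share than over all genes could be foreseen from the choice of the list. Whether the box bears on the lower levels was not tested. Of the panel genes, 0 of 4 with a promoter had a box. The stretches around the boxes of 4 genes are shown to make the element visible, 5′ to 3′ on the strand of the gene, with the CArG box in capitals.
Srf, chr17:46556190-46556269, minus strand, 2 boxes: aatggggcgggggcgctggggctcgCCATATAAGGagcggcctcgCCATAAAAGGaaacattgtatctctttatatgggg
Vcl, chr14:20929148-20929205, plus strand: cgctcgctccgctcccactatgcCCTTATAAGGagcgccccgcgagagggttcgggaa
Ldb3, chr14:34588682-34588741, minus strand: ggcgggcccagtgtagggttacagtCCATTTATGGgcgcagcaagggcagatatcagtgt
Myl9, chr2:156775278-156775337, plus strand: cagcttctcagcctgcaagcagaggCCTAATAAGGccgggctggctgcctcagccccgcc
A match is a stretch of letters and not a measured binding site, and a gene without a match lacks only these letters in this window.

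**Figure D3:**
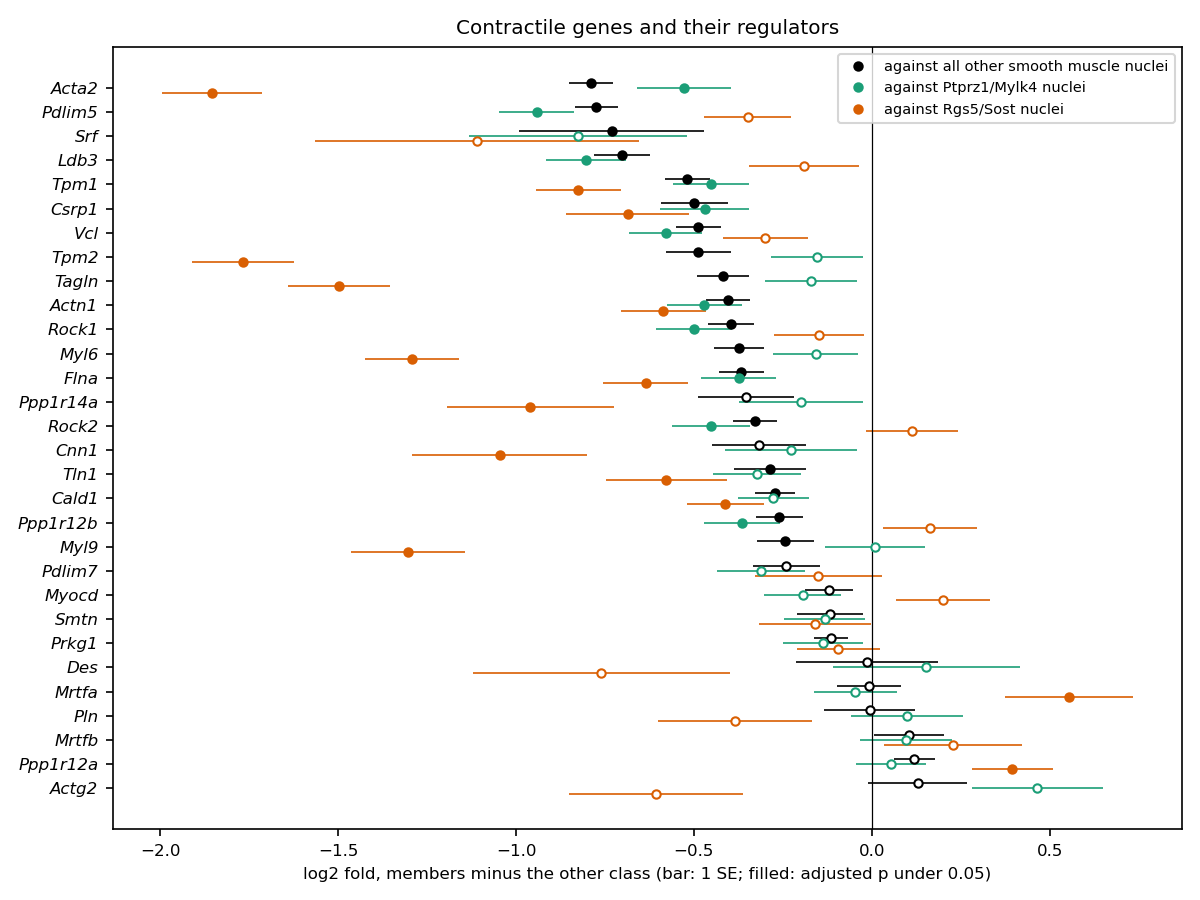
Log2 fold (horizontal axis) of members against all other smooth muscle nuclei (black), Ptprz1/Mylk4 nuclei (green) and Rgs5/Sost nuclei (orange) for the 30 contractile genes tested. Bars are 1 SE and filled points passed an adjusted p of 0.05; the black points are filled for 18 genes, all on the lower side.

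Matrix genes moved in both directions. Of 21 elastic fibre genes 1 was higher and 4 lower (median -0.03), or 23.8% called against 11.8% of all genes tested. Elastin, Eln, was at 11893, 15908 and 9980 CPM in members against 17157, 20856 and 13623 CPM (-0.46 ± 0.04), and its cross-linking enzyme Lox was at 140, 175 and 133 CPM against 203, 354 and 176 CPM (-0.63 ± 0.09). Eln was lower in every pool with overlapping ranges, while Lox did not overlap. The latent TGF-beta binding proteins Ltbp2 (-0.89 ± 0.10) and Ltbp1 (-0.42 ± 0.06) were lower, and fibrillin Fbn1 was higher (0.23 ± 0.07), a call lost without pool 1, without pool 3 and with DESeq2. The elastic fibre counts were 0 and 1 without the pool block. Of 24 collagens 7 were higher and 6 lower (54.2% called, median 0.09). The fibrillar Col3a1 was higher (0.38 ± 0.06), and Col15a1 (-1.09 ± 0.14) and the basement membrane collagen Col4a1 (-0.35 ± 0.07) were lower. The collagen counts were 0 and 1 without the pool block, 2 and 2 with DESeq2, 4 and 3 without pool 1 and 4 and 4 without pool 3. Eln, Lox, Ltbp1, Fbn1, Col3a1 and Col4a1 lost their calls without the block, and Col4a1 also without cycling nuclei.

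Cartilage-type matrix split by gene, with 4 of 15 higher and 4 lower (median 0.08), or 53.3% called against 11.8% of all genes tested. The chondrogenic factors Sox6 (-0.77 ± 0.10) and Sox5 (-0.50 ± 0.07) and the matricellular gene Tnc (-0.62 ± 0.09) were lower. Mgp, an inhibitor of calcification, was at 927, 1809 and 671 CPM against 559, 1257 and 415 CPM (0.65 ± 0.06). The groups overlapped for Mgp, with pool 2 high in both, and each pool differed the same way. Tenascin-X, Tnxb (1.20 ± 0.15), and Matn2 (1.11 ± 0.17) were higher without overlap. The counts for this list were 2 and 0 without the pool block, where Sox6, Sox5, Tnc and Mgp lost their calls, and DESeq2 did not call Sox5 or Tnc.

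Genes of the TGF-beta and BMP pathway, which controls matrix and contractile genes, were lower more often than higher. Of 30 tested genes of the pathway 3 were higher and 10 lower (median -0.20), or 43.3% called against 11.8% of all genes tested. The counts were 0 and 2 without the pool block, 2 and 5 with DESeq2 or without pool 1, and 2 and 6 without pool 3 or without cycling nuclei. The ligand Bmp4 was at 16.7, 19.0 and 19.7 CPM in members against 37.2, 43.9 and 47.5 CPM (-1.19 ± 0.19), and the ligands Tgfb2 (-0.40 ± 0.07) and Tgfb3 (-0.53 ± 0.14) were lower, Tgfb3 not without pool 3. The pathway target Ccn2 was at 242, 275 and 140 CPM against 515, 624 and 347 CPM (-1.16 ± 0.08), with no overlap. Higher were the BMP-binding protein Bmper (1.06 ± 0.11), the coreceptor Tgfbr3 (0.75 ± 0.11) and Smad3 (0.40 ± 0.14), whose call was lost without any 1 pool. Tgfb2, Ccn2, Bmper and Tgfbr3 lost theirs without the pool block.

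Among growth factors, 5 of 23 genes were higher and 6 lower (median -0.08), or 47.8% called against 11.8% of all genes tested. Fgf1 (-1.23 ± 0.17), Fgf2 (-0.91 ± 0.11), Pdgfd (-0.58 ± 0.06) and Igfbp7 (-0.63 ± 0.06) were lower, and the receptor Egfr was higher, at 234, 233 and 304 CPM against 148, 103 and 185 CPM (0.77 ± 0.09). Igf1 (0.56 ± 0.11) and Igfbp4 (0.65 ± 0.14) were higher too. In the Notch list 3 of 11 genes were higher and 1 lower (36.4% called, median 0.17). The ligand Jag1 was at 480, 621 and 563 CPM against 355, 433 and 369 CPM (0.51 ± 0.07). The receptor Notch3 did not pass the test (-0.17 ± 0.07) except when pool 2 was left out. The growth factor counts were 0 and 2 without the pool block and 2 and 5 with DESeq2, and those of the Notch list 0 and 0 without the block and 1 and 0 with DESeq2, without pool 1 or without pool 3. Pdgfd, Igfbp7, Egfr, Igf1, Igfbp4 and Jag1 lost their calls without the block, and DESeq2 did not call Igfbp4.

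Among genes that set vessel tone a minority of each list was called, but a larger share than the 11.8% of all genes tested. Of 15 vasoactive receptors, cyclases and phosphodiesterases 5 were higher and 1 lower (median 0.05). The endothelin receptor Ednra was at 198, 157 and 241 CPM in members against 116, 108 and 119 CPM (0.79 ± 0.10), and Pde4d, which breaks down cyclic AMP, at 526, 421 and 722 CPM against 261, 244 and 356 CPM (0.96 ± 0.08). The natriuretic peptide receptor Npr1 was lower (-0.72 ± 0.16), a call lost without pool 1 (-0.27), without the pool block and with DESeq2. Of 21 channel and calcium genes 2 were higher and 6 lower (median -0.10). The calcium-activated chloride channel Ano1 was at 182, 159 and 188 CPM against 334, 386 and 342 CPM (-0.96 ± 0.09), with no overlap, and the L-type calcium channel gene Cacna1c was higher by 0.26 ± 0.06. Cacna1d was called lower (-0.48 ± 0.12), and without pool 2, where the others stood at 254 CPM against 60.1 and 74.7 CPM in pools 1 and 3, the value was 0.03. The vasoactive counts were 2 and 0 without the pool block, and the channel counts 0 and 1 without the block, 2 and 2 with DESeq2 and 2 and 3 without pool 1 or without cycling nuclei.

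Of 19 developmental transcription factors 7 were higher and 2 lower (median 0.09), or 47.4% called against 11.8% of all genes tested. Hoxb3, a positional factor of the pharyngeal region, was at 45.1, 44.8 and 45.2 CPM in members against 21.5, 29.7 and 15.2 CPM (1.06 ± 0.18), and Twist2 at 42.5, 38.0 and 65.9 CPM against 21.1, 28.5 and 28.3 CPM (0.96 ± 0.17). Neither overlapped between the groups. Meis1 (0.47 ± 0.07), Meis2 (0.47 ± 0.07) and Gata6 (0.37 ± 0.07) were higher, Prrx1 (0.48 ± 0.11) was higher but not without pool 1 or pool 2, and Mef2c was lower (-0.37 ± 0.06). Hoxb3 was the 1 factor called without the pool block, and DESeq2 called 4 higher and 2 lower.

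The 10 largest differences downward at 20 CPM or more in the higher group covered genes of several kinds. Olfr78, an odorant receptor also known from blood vessels, was at 7.09, 4.07 and 3.93 CPM in members against 27.4, 21.4 and 28.3 CPM (-2.15 ± 0.28). The G protein subunit Gna14 was at 55.0, 54.3 and 26.6 CPM against 156, 101 and 123 CPM (-1.52 ± 0.13). Neither overlapped. Crhr2, the urocortin receptor (-1.62 ± 0.26), Tnfrsf11a, the RANK receptor (-1.48 ± 0.25), the kinase Tnni3k (-1.46 ± 0.16), the activity-induced factor Npas4 (-1.46 ± 0.20) and the kinase Dgkg (-1.31 ± 0.13) were lower as well. The unnamed gene Gm33897 (-1.70 ± 0.19), the phospholipase Plb1 (-1.39 ± 0.30) and the heparanase relative Hpse2 (-1.27 ± 0.24) completed the 10.

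**Figure D4:**
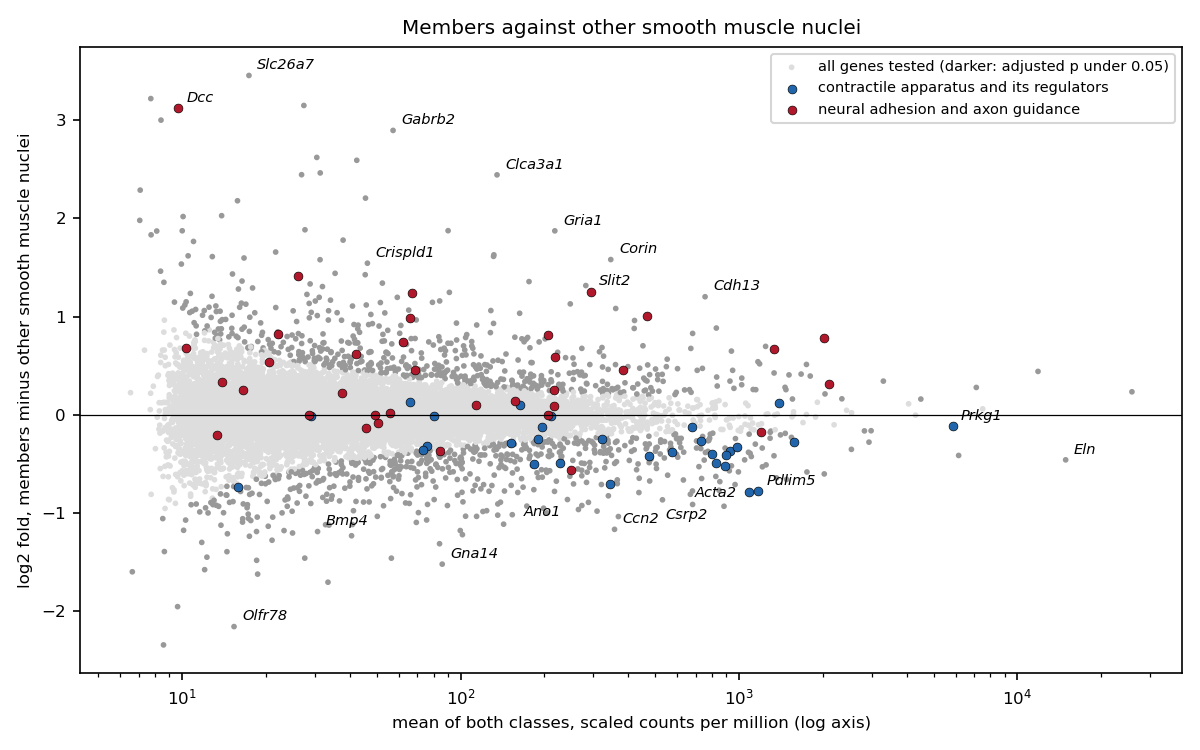
Log2 fold of members against other smooth muscle nuclei (vertical axis) by mean scaled CPM (log axis) for the 10068 genes tested, darker grey where called. Of the contractile genes (blue) 18 were called, all below 0, and of the neural adhesion genes (red) 17 were called above 0 and 3 below.

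The 4 smooth muscle classes were next fitted together, and members were set against each of the others. These comparisons share the members, so their values are given side by side. Against Ptprz1/Mylk4 nuclei 788 of 8797 genes were called (8.96%), 369 higher (4.19%) and 419 lower (4.76%), or 265 without the pool block and 245 without pool 1. Against Rgs5/Sost nuclei 937 were called (10.7%), 272 higher (3.09%) and 665 lower (7.56%), or 271 without the pool block and 368 without pool 1. Against nuclei with no leading panel 223 were called (2.53%), 78 higher (0.887%) and 145 lower (1.65%), or 24 without the pool block, 73 without pool 1 and 81 without pool 3. The pools of the Rgs5/Sost class held 88, 37 and 20 nuclei, and its median mitochondrial share was 1.44% ± 0.740 against 0.504% ± 0.174 in members, a difference whose part in the results was not tested.

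Genes higher in members were set against each class in turn. The pools did not overlap for 20.2% of genes against Ptprz1/Mylk4 nuclei, 22.3% against Rgs5/Sost nuclei and 13.5% against nuclei with no leading panel. Clca3a1 was higher by 2.54 ± 0.21 against Ptprz1/Mylk4 nuclei, 2.01 ± 0.31 against Rgs5/Sost nuclei and 2.20 ± 0.27 against nuclei with no leading panel. DESeq2 did not call Clca3a1 in the latter 2 comparisons. Of the 25 genes chosen by the same rule against Rgs5/Sost nuclei, 21 were called without the block, 21 with DESeq2, 11 without pool 1, where 21 were tested, 24 without pool 2 and 23 without pool 3. Of those chosen against nuclei with no leading panel, 10 were called without the block, 15 with DESeq2, 13 without pool 1, where 24 were tested, 21 without pool 2 and 17 without pool 3. Against Ptprz1/Mylk4 nuclei 25 were called without the block and with DESeq2, 17 without pool 1, where 20 were tested, and 24 without pool 3. Gabrb2 was higher by 2.81 ± 0.23, 2.43 ± 0.38 and 3.76 ± 0.40 in the same order, and Gria1 by 2.11 ± 0.13, 2.13 ± 0.21 and 1.03 ± 0.15. Slc26a7 had 0 UMIs in Rgs5/Sost nuclei of all 3 pools, which against 3 counts over that group makes it at least 7.32-fold higher in members. Slit2 was higher by 1.66 ± 0.13 and 1.28 ± 0.19 against the first 2 classes, and its value against nuclei with no leading panel was 0.25 ± 0.14, which did not pass the test. Corin likewise was at 2.25 ± 0.14, 1.32 ± 0.18 and 0.42 ± 0.15, the last called only without the low-count filter, with nuclei matched on UMIs and without cycling nuclei.

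Counts of contractile genes called against each class come from classes of unequal size. They were 0 higher and 11 lower of 30 against Ptprz1/Mylk4 nuclei (median -0.25), 2 and 13 against Rgs5/Sost nuclei (median -0.49), and 0 and 5 against nuclei with no leading panel (median -0.24). In this order 36.7%, 50.0% and 16.7% of the list were called, against 8.96%, 10.7% and 2.53% of all genes. The counts also changed with the setting. Without the block they were 0 and 3, 0 and 7, and 0 and 0, without pool 1 they were 0 and 3, 0 and 11, and 0 and 1, and without pool 3 they were 0 and 4, 1 and 13, and 0 and 0. Acta2 was at 2085, 4584 and 2150 CPM in Rgs5/Sost nuclei against 687, 1129 and 583 CPM in members (-1.85 ± 0.14), with no overlap, and its value against Ptprz1/Mylk4 nuclei was -0.53 ± 0.13, a call lost without pool 1, without pool 3, without the pool block and with DESeq2. Tagln was lower than in Rgs5/Sost nuclei (-1.50 ± 0.14), and its value against Ptprz1/Mylk4 nuclei, -0.17 ± 0.13, did not pass the test. Pdlim5 showed the other order, at -0.94 ± 0.11 against Ptprz1/Mylk4 nuclei and -0.35 ± 0.12 against Rgs5/Sost nuclei, which passed only with other size factors, with DESeq2 or without pool 3. The difference between these differences was not tested.

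Against Rgs5/Sost nuclei 1 of 21 elastic fibre genes was higher in members and 13 lower (median -0.62), 1 of 23 collagens was higher and 11 lower (median -0.75), and 0 of 14 cartilage-type matrix genes were higher and 5 lower (median -0.66). In the same order 66.7%, 52.2% and 35.7% of the lists were called, against 10.7% of all genes. The counts were 0 and 5, 0 and 5, and 0 and 3 without the block, and 1 and 6, 0 and 5, and 0 and 5 without pool 1. Eln was at 24901, 31498 and 17610 CPM there against 12114, 16119 and 10004 CPM in members (-0.95 ± 0.10), and Lox was lower in members too (-1.79 ± 0.16). Reln, a secreted guidance glycoprotein, was at 39.9, 44.5 and 65.2 CPM in Rgs5/Sost nuclei and 1.16, 1.37 and 6.90 CPM in members (-4.17 ± 0.63). Olfr78 was lower than in Rgs5/Sost nuclei (-3.67 ± 0.49) and did not pass the test against Ptprz1/Mylk4 nuclei (-0.79 ± 0.49). Gna14 showed the reverse, at -0.17 ± 0.33 (not called) and -1.90 ± 0.18. Against Ptprz1/Mylk4 nuclei 9 of 23 collagens were higher and 1 lower (median 0.26), or 43.5% called against 8.96% of all genes. These counts were 0 and 1 without the block, 3 and 1 with DESeq2, 2 and 1 without pool 1 and 5 and 1 without pool 3. Col3a1 was at 0.62 ± 0.12 and Mgp at 1.24 ± 0.12, both not called without the pool block.

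Members also differed among themselves. In 659 of them Clca3a2, Pi15 and Col24a1 together had more UMIs than Syt1 and Cdh18, in 473 the reverse held, and 37 were tied. Over all thinned smooth muscle nuclei, Pi15 was detected in 57.2% ± 6.21 of nuclei with Clca3a2 and 15.9% ± 1.61 of those without, whereas Cdh18 was detected in 59.2% ± 3.30 and 42.1% ± 2.52. The split used the same panel UMIs that chose the members, so what follows describes which genes go with either side of the panel and is no independent evidence of 2 kinds of members. Between the Syt1/Cdh18-led members and those led by Clca3a2, Pi15 and Col24a1, 187 of 7625 genes were called (2.45%), 116 higher (1.52%) and 71 lower (0.931%). The count was 9 without the pool block, 69 with DESeq2, 78 without pool 1 and 74 without cycling nuclei.

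Several genes higher in members were lower in those led by Syt1 and Cdh18. Clca3a1, which may share reads with Clca3a2 and so with the split, was at 118, 74.5 and 138 CPM in Syt1/Cdh18-led members against 328, 390 and 282 CPM in those led by the other 3 genes (-1.52 ± 0.16). Cdh13 was at 641, 678 and 793 CPM against 1406, 1058 and 1672 CPM (-0.98 ± 0.10), and Gria1 at 191, 239 and 276 CPM against 419, 392 and 485 CPM (-0.94 ± 0.12). None of these overlapped, as was the case for 13.4% of all genes tested. Gm28154 (-1.66 ± 0.26), Crispld1 (-1.22 ± 0.22) and Slc26a7 (-2.16 ± 0.36, not called without pool 1) were lower too, while Chrm2 (-0.37 ± 0.16) and Megf10 (-0.69 ± 0.23) did not pass the test. Higher in Syt1/Cdh18-led members were Itgbl1 (1.53 ± 0.15), Xkr4 (1.37 ± 0.13) and Pcdh9 (1.04 ± 0.09). Ccn2 (1.06 ± 0.13) and Eln (0.48 ± 0.06), both lower in members than in other smooth muscle nuclei, were higher in this subset than in members led by the other 3 genes. Without the pool block Cdh13, Gria1, Gm28154, Crispld1, Slc26a7, Ccn2 and Eln were not called, while Clca3a1, Itgbl1, Xkr4 and Pcdh9 were, and Megf10 was called without pool 2 or with members matched on UMIs.

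**Figure D5:**
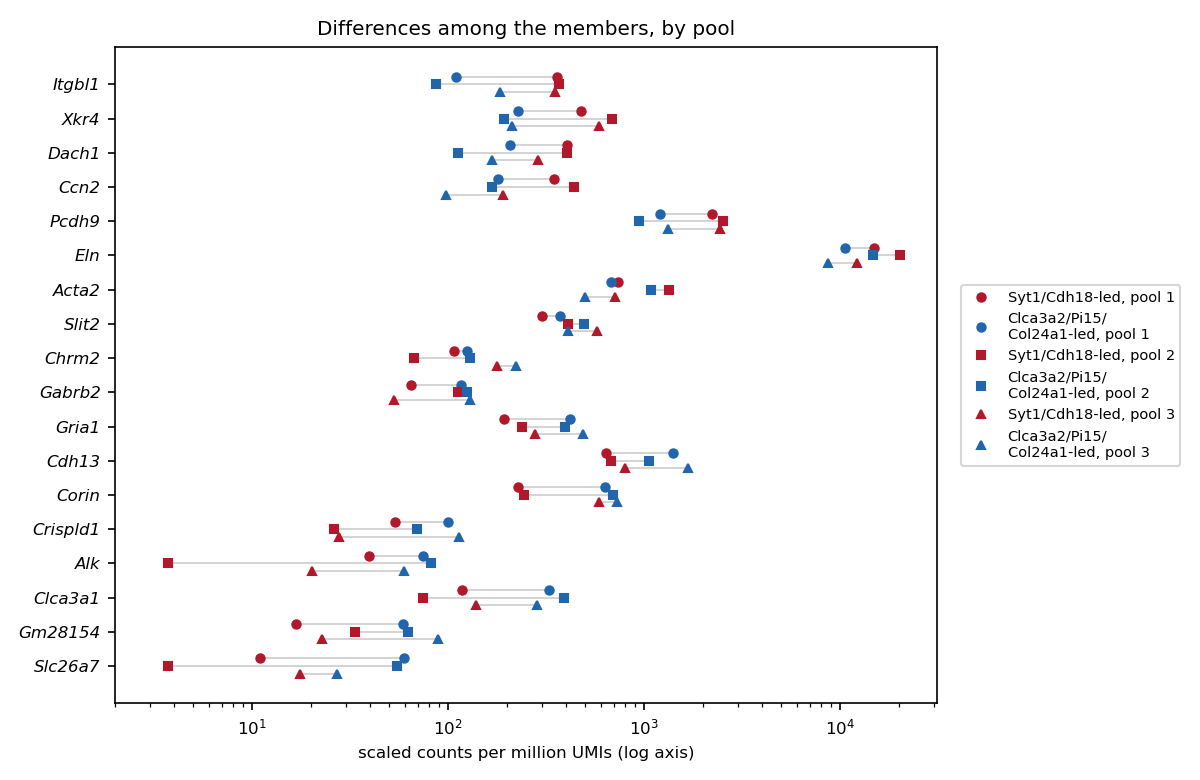
Scaled CPM (log axis) of 18 genes in members led by Syt1 and Cdh18 (red) and in members led by Clca3a2, Pi15 and Col24a1 (blue). Each symbol is 1 pool, and Clca3a1, Cdh13 and Gria1 stand lower and Itgbl1 and Pcdh9 higher in the red symbols of all 3 pools.

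Cycling nuclei were counted as those with at least 2 UMIs of 16 cell cycle genes after thinning. They made up 10.6%, 10.1% and 8.97% of members against 13.3%, 14.1% and 11.8% of other smooth muscle nuclei, or 9.86% ± 0.814 against 13.1% ± 1.16. Members were lower in each pool without overlap between the groups, and 3 pairs cannot give an exact p under 0.25. By class the share was 13.5% ± 0.338 in Ptprz1/Mylk4 nuclei, 12.3% ± 8.50 in Rgs5/Sost nuclei and 10.9% ± 2.06 in nuclei with no leading panel. The Ptprz1/Mylk4 class alone was above members in every pool. Rgs5/Sost nuclei were below members in pools 1 and 3 (10.2% and 5.0%), and nuclei with no leading panel in pool 2 (9.09%). Cardiomyocyte nuclei gave 2.64% ± 0.635 and endothelial nuclei 6.85% ± 0.972. Without thinning the shares were 22.7% in members and 28.3% in all others, among which nuclei with no leading panel gave 19.6%. In the gene test 0 of 16 cell cycle genes were higher and 3 lower, or 18.8% called against 11.8% of all genes tested. The cytokinesis gene Anln was at -0.72 ± 0.11. Against Ptprz1/Mylk4 nuclei 1 gene of this list was lower (6.25%, median -0.20), where 8.96% of all genes were called. Against Rgs5/Sost nuclei (median 0.32) and nuclei with no leading panel (median -0.22) 0 were called.

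Markers of other cells moved with the comparison in several lists, and their part in the results was not tested. All 4 tested erythroid genes were higher in members, with Hbb-bs at 276, 160 and 205 CPM against 133, 164 and 107 CPM (0.79 ± 0.10), higher in pools 1 and 3 and not in pool 2. Of the 4, 0 were called without the pool block, 1 without pool 1 and 2 with DESeq2. Without cycling nuclei Hba-a1 stood at -0.39, Hba-a2 at -0.13 and Hbb-bs at -0.08, none called. The 8 erythroid markers summed to 519 ± 156 CPM in members and 319 ± 64.2 CPM in the others. Endothelial markers summed to 184 ± 21.2 CPM against 277 ± 18.5 CPM, with 2 of 5 tested lower in members, Flt1 (-0.82 ± 0.12) and Erg (-0.66 ± 0.14), and were at 3672 ± 739 CPM in endothelial nuclei. Fibroblast markers summed to 1110, 1486 and 1073 CPM in members and 1012, 1374 and 848 CPM in the others, higher in members in each pool with overlap between the groups, and the 1 called gene, Abca8a, fell to 0.26 without pool 1 and was then not called. Pericyte markers summed to 836, 892 and 767 CPM against 988, 930 and 845 CPM, lower in members in each pool with overlap between the groups. Macrophage markers summed to 60.8 ± 35.3 and 51.9 ± 32.0 CPM, and valve interstitial markers to 156 ± 56.8 and 190 ± 134 CPM, with no common direction over the 3 pools. Of 4 tested pericyte markers 1 was lower, Cspg4, at 166, 164 and 158 CPM in members against 247, 287 and 195 CPM (-0.56 ± 0.09). Of 2 tested macrophage markers 1 was called higher, F13a1, at 36.3, 4.07 and 5.90 CPM against 14.7, 0 and 11.1 CPM (1.06 ± 0.26), lower in pool 3. The 1 tested melanocyte marker, Tyr, was called lower at 1.99, 0 and 11.8 CPM against 13.5, 2.37 and 10.1 CPM (-1.60 ± 0.40), higher in pool 3. These 3 calls were lost without the pool block, and F13a1 and Tyr fell under the low-count filter without pool 1, as did Tyr without pool 3.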

How the data were processed

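Nuclear RNA of 3 pools was measured, and the deposited files hold whole-number UMI counts for 36167 features per nucleus, which the authors made with Cell Ranger, per the file headers version 7.1.0. The submitters' processing notes name Cell Ranger 7.0.1 and 7.1.0 and the build GRCm39. The annotation, the intron setting and the strand setting of counting are not given in the sources used here, so reads of overlapping or antisense genes cannot be told apart, and RNA free in the droplets can add UMIs to any nucleus. The pools held 49918251, 25341316 and 21254247 UMIs, and the sums of members 3527690, 758623 and 1062058. The members and gene lists were chosen with earlier results of these data known.

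Counts were summed per pool and class, with no imputation, and genes were tested with edgeR 4.0.16 (R 4.3.3; TMM scaling, filterByExpr, quasi-likelihood test, Benjamini-Hochberg adjustment over all genes tested, threshold 0.05). The pool was a block, because the sums of a pool come from 1 library. The member comparison leaves 2 residual degrees of freedom, and its spread is borrowed across genes. With the block, p-values measure only how much the difference between classes varied over these pools, with the level of each pool taken out. Genes of the rule and gates were fitted but not tested. Named genes are up to 15 with the largest difference upward and 10 downward among those called, in the same direction in 3 of 3 pools and at 20 CPM or more in the higher class, and genes of the lists. Genes beside the panel genes were added after their values were seen. Background nuclei had at least 2% of UMIs from the cardiomyocyte gate genes, or at least 3 UMIs from at least 2 endothelial gate genes, and under 0.2% from the smooth muscle gate genes. Alternatives were DESeq2 1.42.0, other size factors, no low-count filter, no block, leaving out each pool, matching on UMI totals, and other limits on nuclei. The fit was tested on simulated data. Nuclei were handled in Python 3.11.15 with scanpy 1.11.5. Promoters are RefSeq windows on GRCm38.p6, and no other coordinates are given because the builds differ. Some named genes are not reported here.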

Additional observations from a re-analysis of the deposited data

How the results depend on the processing

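Against all other smooth muscle nuclei 1183 genes were called, 148 without the replicate block, 368 with DESeq2, 732 with at most 1% mitochondrial UMIs and 560 to 1037 when 1 pool was left out. Against Ptprz1/Mylk4 nuclei the counts were 265 without the block, 434 with DESeq2 and 245 to 702 without 1 pool. Against Rgs5/Sost nuclei they were 271 without the block, 208 of 4088 genes tested with nuclei matched on UMI totals, against 937 of 8797, and 368 to 736 without 1 pool. Against nuclei with no leading panel they were 24 without the block, 126 with DESeq2, 147 of 5136 genes tested with matched nuclei, against 223 of 8797, and 73 to 257 without 1 pool. Within members they were 9 without the block, 69 with DESeq2, 74 without cycling nuclei and 78 to 147 without 1 pool. The cycling share was 22.7% without thinning. Cacna1d ranged from -0.832 to 0.0318 without 1 pool, and without cycling nuclei Hba-a1 stood at -0.39, Hba-a2 at -0.13 and Hbb-bs at -0.0836. The cause of these changes was not tested. Of 174 genes followed in the member comparison, 122 lost their call without the block and 56 with DESeq2, which gave no adjusted p for 14, and 54, 15 besides Cacna1d and 27 lost it without pools 1, 2 and 3, where 2 were not tested without pool 1 and 1 without pool 3. The Rgs5/Sost comparison gave no value without marked doublets, with a panel sum of 3, with stricter limits or without cycling nuclei, since a pool then held under 20 nuclei. The smallest sum of that class held 61134 UMIs.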
